A study of Homo sapiens with 6 samples.

Results

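Across the whole table of 58735 genes, 9 of 19951 protein-coding genes rose from a mean CPM under 1 in control cells to at least 3 in cells depleted of SON. They are BMP6, SEMA4A, TNFRSF8, OVGP1, CNIH2, SYT12, SLC35F3, EEF1AKMT4 and CNTD2. CPM is a gene's count scaled to a library total of 1000000 counts. A total of 11 protein-coding genes passed both bounds, and BST1 and SLC1A3 were left out of the set. The genes were chosen by their siSON and siControl CPM values themselves, so their differences are given as a description, with no test.

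The data were RNA-seq counts per gene from 6 libraries of RPE-1, an established line of human retinal pigment epithelium. Its cells carried CETN2, a centriole protein, tagged with GFP, and PLK4, the kinase that starts centriole duplication, under an rtTA doxycycline-inducible promoter. All 6 libraries came from cells given 1 µg/mL doxycycline to induce PLK4, so no library shows cells without induced PLK4. The control group (siControl, n = 3) was given a scramble siRNA and the depleted group (siSON, n = 3) an siRNA against SON, both with Lipofectamine RNAiMAX. Whether the 3 libraries of a group came from separate cultures is not stated in the labels, so p-values measure the spread between these libraries, which may be technical. The time after transfection is not given in the sources used here.

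SON is a large nuclear speckle protein that helps the splicing machinery remove introns with weak splice sites. Genes that an epithelial line barely transcribes often belong to the programme of another tissue, such as synaptic, lymphoid or oviductal genes. Among the 9 genes, BMP6 and SEMA4A are signalling ligands, TNFRSF8 is a cytokine receptor, OVGP1 is a secreted glycoprotein, CNIH2 and SYT12 are best known from neurons, SLC35F3 is a transporter, and EEF1AKMT4 and CNTD2 act inside the cell.

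Library totals ran from 54572365 to 69764836 counts. SON itself was at 313, 337 and 304 CPM in the siControl libraries and at 62.9, 66.1 and 60.5 CPM in the siSON libraries, which leaves 19.8% of the control mean. Its log2 fold change was -2.14 (SE 0.06, edgeR quasi-likelihood test, adjusted p = 6.78e-10). Markers of pigment epithelium were mixed in the siControl libraries: OTX2 (21.3 ± 0.507 CPM, SD, n = 3), MITF (23.3 ± 0.723 CPM) and BEST1 (8.70 ± 0.432 CPM) were present. The visual cycle genes RPE65 (0.154 ± 0.104 CPM), RLBP1 (0.0334 ± 0.0579 CPM) and LRAT (0.464 ± 0.0261 CPM) were near 0, and TYR, the pigment enzyme, was listed at 0 in all 6 libraries.

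The words switched on describe these genes only in part. Every one of the 9 had counts in every siControl library, from 6 to 92, and from 102 to 444 in the siSON libraries. Added over the genes, CPM came to 6.44, 6.30 and 4.76 in siControl replicates 1, 2 and 3, and to 42.5, 35.0 and 33.8 in siSON replicates 1, 2 and 3. The change was therefore a rise from a low level, not an appearance from 0. In bulk RNA, more cells that express a gene and more RNA per cell cannot be told apart.

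**Figure D1:**
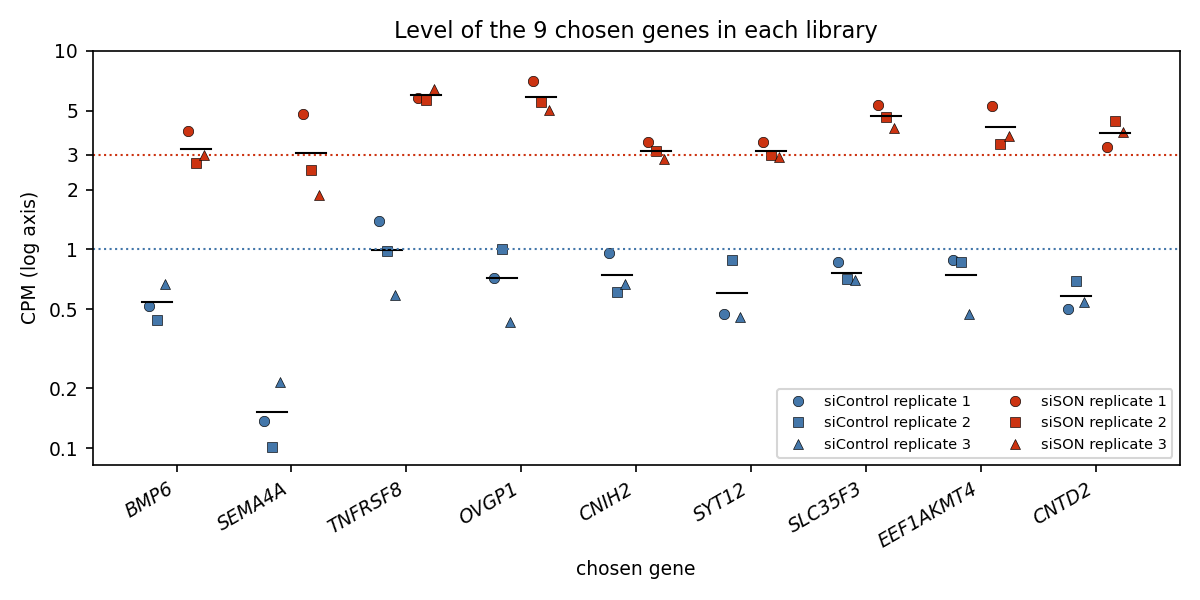
Level of the 9 genes in each library in CPM on a log axis, with siControl in blue, siSON in red, replicates by symbol, black bars for group means and dotted lines at the bounds of 1 and 3 CPM. Every siSON point lies above every siControl point of its gene, and SEMA4A starts lowest, at a mean of 0.151 CPM. The genes were chosen by these values, so this separation, here and in the text below, follows largely from the rule.

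Few genes of low expression rose this far. In siControl, 8217 protein-coding genes had a mean under 1 CPM, and 3900 of these had no count in any of the 6. Of the 8217, 1478 had a higher mean in siSON, 127 reached 1 CPM, 28 reached 2 CPM and 11 reached 3 CPM. The mirror image of the rule, from at least 3 CPM in siControl to under 1 CPM in siSON, held 168 protein-coding genes.

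**Figure D2:**
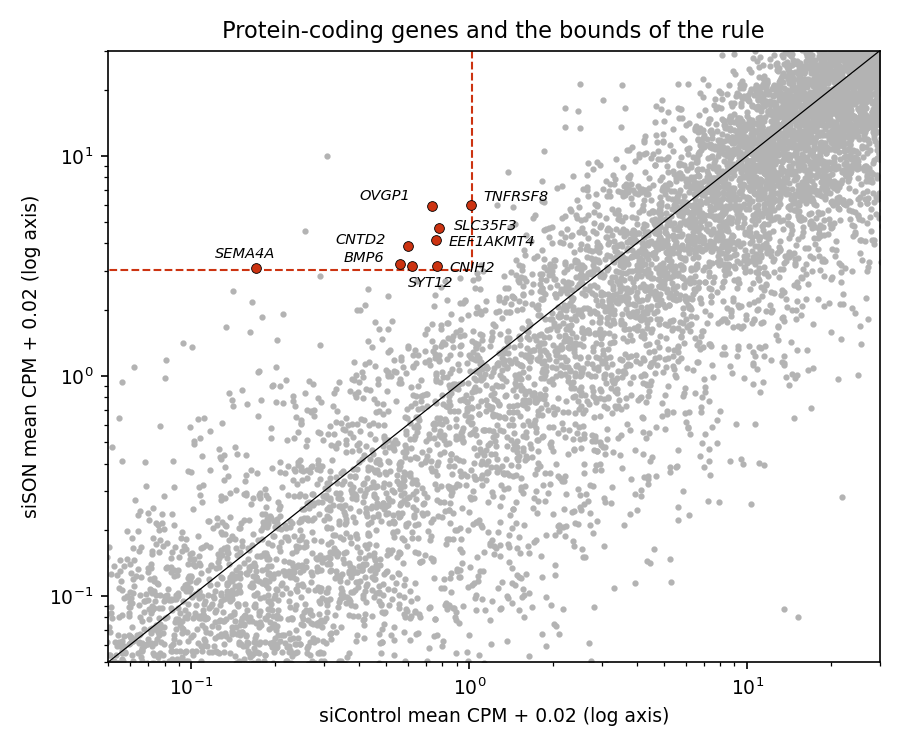
Mean CPM of protein-coding genes in siControl (horizontal) and siSON (vertical), both plus 0.02 on log axes, with the 9 genes in red and the bounds of the rule dashed. The 9 genes lie in the upper left corner with 2 grey points, the genes left out, and the line marks equal levels.

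The bounds cut through a continuum. Just inside the upper bound were SEMA4A at 3.06 CPM and SYT12 at 3.13 CPM in siSON, and just outside were MTUS1, which went from 0.271 to 2.84 CPM, and DUSP2, from 0.907 to 2.75 CPM. On the control side, TNFRSF8 (0.990 CPM) and SLC35F3 (0.760 CPM) were the members nearest the bound, and IL1RN (1.08 to 3.16 CPM) and GFRA1 (1.24 to 5.93 CPM) lay just outside. The ratios of MTUS1 and GFRA1 lay within the range of the 9 members, 4.20 to 20.2. Membership also leaned on a single library: without siSON replicate 1 only 5 genes met the rule, and BMP6, CNIH2, SYT12 and SEMA4A fell below 3 CPM.

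The log2 fold changes of the 9 genes, fitted with TMM-scaled libraries across the whole table, ran from 2.26 to 4.50 with a median of 2.79. The median over all 16591 genes tested was -0.03. With library totals in place of TMM, log2 fold changes of all genes moved by a median of -0.20, which left every one of the 9 above 2. A log2 fold change over 2 was found for 143 of 13008 protein-coding genes tested, of which 48 had a siControl mean of at least 1 CPM. All 9 passed the filter on low counts, 8 of them with more than 0.164 CPM in each siControl library and SEMA4A only through its siSON libraries.

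BMP6 is a secreted ligand of the bone morphogenetic protein branch of the TGF-beta family, known in the liver as an inducer of the iron hormone hepcidin. The gene (ENSG00000153162) lies on chromosome 6 at 7726797 to 7881422 of GRCh38, plus strand, with 7 merged exons. BMP6 was at 0.517, 0.441 and 0.674 CPM in siControl replicates 1, 2 and 3 and at 3.94, 2.73 and 2.99 CPM in siSON. All siSON libraries were higher than all siControl libraries, with replicate 1 the highest. The mean rose 5.92-fold, from 0.544 ± 0.119 to 3.22 ± 0.637 CPM (SD, n = 3), a log2 fold change of 2.75 (SE 0.23). The RefSeq start of BMP6 lies upstream of the gene position given above. Its RefSeq promoter window is shown because it is rich in CpG, with 33 CG dinucleotides, written in capitals, in 250 bases before and 50 after that start (GRCh38.p14, chr6:7725849-7726148, plus strand).
BMP6: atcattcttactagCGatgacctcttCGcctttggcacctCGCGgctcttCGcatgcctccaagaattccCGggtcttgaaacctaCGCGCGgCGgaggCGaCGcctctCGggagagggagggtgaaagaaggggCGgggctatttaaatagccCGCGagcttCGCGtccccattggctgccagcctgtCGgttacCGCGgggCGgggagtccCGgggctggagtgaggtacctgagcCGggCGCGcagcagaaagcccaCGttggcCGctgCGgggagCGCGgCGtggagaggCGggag

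Other genes of the BMP pathway were called in both directions. Of all genes tested, 71.7% were called changed with edgeR (quasi-likelihood, adjusted p under 0.05), 35.2% higher in siSON and 36.5% lower, and counts below are to be read against these shares. Among 7 other BMP and GDF ligands tested, 2 rose and 3 fell. BMP4, a ligand of the same branch, rose from 5.17 ± 0.837 to 15.8 ± 1.21 CPM (log2 1.81, adjusted p = 2.6e-07), and BMP2 from 0.492 ± 0.162 to 1.62 ± 0.519 CPM (log2 1.93, adjusted p = 0.000253). GDF15, a stress-induced cytokine, fell from 272 ± 28.4 to 13.3 ± 4.19 CPM (log2 -4.16). These companions, and those of the other 8 genes, come from lists written after the values of the 9 genes were seen.

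On the receiving side, 5 of 9 BMP receptors and co-receptors rose and 2 fell, but with library size alone as the scale 1 rose and 4 fell. ACVR2A, a type II receptor, rose under both scales (7.72 ± 0.449 to 13.9 ± 0.904 CPM, log2 1.05), while the co-receptor ENG fell from 41.0 ± 4.75 to 7.37 ± 1.41 CPM (log2 -2.28) and the receptor ACVRL1 from 1.62 ± 0.367 to 0.137 ± 0.104 CPM (log2 -3.37). HJV, the co-receptor through which BMP6 acts in the liver, was at 0.0143 CPM in siControl and listed at 0 in siSON. Of 9 SMAD and ID genes, which carry and read out the signal, 3 rose and 2 fell. The BMP target ID1 stood at 63.1 ± 11.5 and 61.8 ± 5.81 CPM (adjusted p = 0.214) and ID3 at 135 ± 24.9 and 126 ± 11.2 CPM (adjusted p = 0.454). With the replicate number as a block in the edgeR test, ID1 passed (adjusted p = 0.0394) and ID3 did not (adjusted p = 0.099). The SMAD and ID counts were then 4 higher and 3 lower. Among 9 BMP antagonists, 5 rose and 2 fell, against 1 and 4 with library size alone; BAMBI, a decoy receptor, rose from 28.8 ± 2.30 to 46.8 ± 1.51 CPM (log2 0.90).

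SEMA4A is a membrane semaphorin found on immune cells and in the retina and its pigment epithelium, and its mutations are linked to retinal degeneration. The gene (ENSG00000196189) lies on chromosome 1 at 156147366 to 156177752, plus strand, with 18 merged exons. SEMA4A had 0.137, 0.102 and 0.215 CPM in siControl, which is 9, 6 and 15 counts, and 4.80, 2.51 and 1.87 CPM in siSON. Replicate 1 was well above the other siSON libraries, yet the lowest siSON library was still 8.69 times the highest siControl library. From 0.151 ± 0.0579 to 3.06 ± 1.54 CPM (n = 3), the ratio of 20.2 was the largest of the 9, with a log2 fold change of 4.50 (SE 0.44). Without siSON replicate 1 the mean was 2.19 CPM, 14.5-fold above control. RefSeq gives 4 windows for SEMA4A, with 4 to 10 CG dinucleotides each. All lie within the gene span given above, so the start of that span has no window. The first is printed as a window with fewer CG dinucleotides than that of BMP6 (8 CG in capitals, GRCh38.p14, chr1:156149694-156149993, plus strand).
SEMA4A: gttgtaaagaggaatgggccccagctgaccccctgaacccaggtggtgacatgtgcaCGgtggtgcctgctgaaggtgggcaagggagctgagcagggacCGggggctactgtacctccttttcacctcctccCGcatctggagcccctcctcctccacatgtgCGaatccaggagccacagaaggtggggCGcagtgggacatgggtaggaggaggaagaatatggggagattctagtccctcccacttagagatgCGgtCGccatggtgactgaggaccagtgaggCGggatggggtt

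Of 15 other semaphorins tested, 4 rose and 7 fell, and with library size alone 11 fell. The class 4 relative SEMA4F fell from 33.98 ± 1.52 to 7.59 ± 1.15 CPM (log2 -1.97), SEMA4D from 0.401 ± 0.184 to 0.0632 ± 0.0233 CPM (log2 -2.42) and SEMA4G from 0.474 ± 0.0962 to 0.0549 ± 0.0485 CPM (log2 -2.93). Of the class 4 members, SEMA4B (adjusted p = 0.529) and SEMA4C (adjusted p = 0.597) did not pass the test. All 11 plexins and neuropilins, the receptors of semaphorins, passed it, 3 higher and 8 lower. The class B plexins and PLXND1, which bind class 4 semaphorins, fell: PLXNB1 by 1.35, PLXNB2 by 1.01, PLXNB3 by 1.73 and PLXND1 by 0.59 on the log2 scale, with PLXNB2 going from 697 ± 29.4 to 302 ± 28.5 CPM. NRP1, a co-receptor of class 3 semaphorins, rose from 422 ± 27.5 to 631 ± 54.7 CPM (log2 0.78).

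TNFRSF8, or CD30, is a receptor of the TNF superfamily carried by activated lymphocytes and by the Reed-Sternberg cells of Hodgkin lymphoma. The gene (ENSG00000120949) lies on chromosome 1 at 12063377 to 12144207, plus strand, with 15 merged exons. TNFRSF8 was at 1.40, 0.984 and 0.588 CPM in siControl and at 5.77, 5.66 and 6.45 CPM in siSON. The siControl libraries spread more than the siSON libraries, and siControl replicate 1 alone was over the bound of 1 CPM. Its mean of 5.96 ± 0.428 CPM in siSON was the highest of the 9, 6.02-fold above 0.990 ± 0.405 CPM (log2 2.79, SE 0.24, n = 3). Without siControl replicate 3, the lowest, TNFRSF8 no longer met the rule. The RefSeq promoter window of TNFRSF8 lies wholly upstream of the gene position given above. This window is shown as the carrier of an AP-1 motif, TGAGTCA on either strand (11 CG in capitals, GRCh38.p14, chr1:12063053-12063352, plus strand). The motif was held by 1 of the 9 windows of the members and by 4.95% of all windows.
TNFRSF8: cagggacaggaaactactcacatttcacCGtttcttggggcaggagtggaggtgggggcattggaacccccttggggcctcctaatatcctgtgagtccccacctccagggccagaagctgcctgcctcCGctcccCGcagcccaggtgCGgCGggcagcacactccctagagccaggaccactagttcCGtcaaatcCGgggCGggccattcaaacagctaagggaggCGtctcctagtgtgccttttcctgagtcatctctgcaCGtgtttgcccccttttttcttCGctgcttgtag

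Among 21 other TNF receptor genes tested, 8 rose and 11 fell, with a median log2 fold change of -0.26. The death receptor TNFRSF1A rose from 242 ± 17.5 to 468 ± 17.4 CPM (log2 1.15), TNFRSF1B, the next gene 22.8 kb downstream of TNFRSF8, from 17.6 ± 1.10 to 36.9 ± 2.91 CPM (log2 1.27), and TNFRSF11A, the receptor RANK, from 17.5 ± 1.10 to 39.3 ± 2.06 CPM (log2 1.37). TNFRSF9, another receptor of activated T cells, went the other way, from 3.57 ± 0.459 to 0.191 ± 0.0989 CPM (log2 -4.04). The ligand of CD30, TNFSF8, was listed at 0 in all 6 libraries. Of 6 TRAF adaptors, which carry the signal of these receptors, 2 rose and 1 fell (2 with library size alone): TRAF1 dropped from 9.35 ± 0.564 to 2.03 ± 0.290 CPM (log2 -2.01) and TRAF3 rose from 41.0 ± 0.722 to 50.1 ± 3.52 CPM (log2 0.49), while TRAF2 did not pass the test (adjusted p = 0.403).

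OVGP1, oviductin, is a glycoprotein secreted by the epithelium of the oviduct and belongs to the chitinase-like family. The gene (ENSG00000085465) lies on chromosome 1 at 111414314 to 111427777, minus strand, with 10 merged exons. OVGP1 was at 0.714, 1.00 and 0.430 CPM in siControl and at 7.08, 5.51 and 5.06 CPM in siSON, so the groups stood apart and siSON replicate 1 was the highest. The mean went from 0.715 ± 0.286 to 5.88 ± 1.06 CPM (n = 3), 8.22-fold, second among the 9 to SEMA4A (log2 3.25, SE 0.26). Among its relatives, CHIA and CHIT1, the active chitinases, were listed at 0 throughout, the lysosomal chitobiase CTBS fell from 20.4 ± 1.77 to 12.3 ± 0.980 CPM (log2 -0.53, adjusted p = 0.000308), CHI3L1 fell from 0.791 ± 0.410 to 0.249 ± 0.0412 CPM (log2 -1.47, adjusted p = 0.0086), and CHI3L2 did not pass the test (adjusted p = 0.0715). Among the 4 relatives tested, 1 rose and 2 fell.

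CNIH2 is a cornichon protein that accompanies AMPA-type glutamate receptors in the brain as an auxiliary subunit. The gene (ENSG00000174871) lies on chromosome 11 at 66278190 to 66285301, plus strand, with 7 merged exons. CNIH2 was at 0.957, 0.611 and 0.674 CPM in siControl and at 3.46, 3.11 and 2.84 CPM in siSON. The 3 siSON libraries lay close together and all above control. From 0.747 ± 0.185 to 3.14 ± 0.310 CPM (n = 3), the 4.20-fold rise was the smallest of the 9 (log2 2.26, SE 0.21). Its window is printed as the most CpG-dense of the members, with 44 CG dinucleotides in capitals and 80.0% G and C (GRCh38.p14, chr11:66277925-66278224, plus strand).
CNIH2: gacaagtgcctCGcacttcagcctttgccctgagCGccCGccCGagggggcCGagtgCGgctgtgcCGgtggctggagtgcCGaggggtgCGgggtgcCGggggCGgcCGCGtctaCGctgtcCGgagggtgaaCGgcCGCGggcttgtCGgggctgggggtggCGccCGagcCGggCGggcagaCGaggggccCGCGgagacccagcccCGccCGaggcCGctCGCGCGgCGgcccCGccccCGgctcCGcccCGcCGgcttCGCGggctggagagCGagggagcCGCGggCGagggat

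The other cornichons are cargo receptors of the secretory pathway. CNIH1 rose from 77.5 ± 2.73 to 148 ± 3.81 CPM (log2 1.13) and CNIH3, the other AMPA receptor partner, from 6.78 ± 0.636 to 12.9 ± 1.05 CPM (log2 1.12), while CNIH4 did not pass the test (adjusted p = 0.705) but was called lower with library size alone. The partners of CNIH2 were scarce. Among the pore-forming subunits, GRIA3 was listed at 0 in all libraries and GRIA1, GRIA2 and GRIA4 had means under 1 CPM in both groups. The AMPA receptor regulator CACNG8 fell from 17.6 ± 2.45 to 3.94 ± 0.738 CPM (log2 -1.96) and CACNG7 rose from 0.820 ± 0.143 to 1.47 ± 0.113 CPM (log2 1.04). CNIH2 shares 203 exon bases with YIF1A on the opposite strand, which fell from 31.3 ± 0.792 to 6.96 ± 1.196 CPM (log2 -1.98), and 31 with the non-coding AP001107.1. The strand setting of the counting is not given in the sources used here, so reads from the shared stretches cannot be assigned with certainty.

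SYT12 is a synaptotagmin of synaptic vesicles in the brain, from the family that includes the calcium sensors of vesicle release. The gene (ENSG00000173227) lies on chromosome 11 at 67006778 to 67050863, plus strand, with 14 merged exons. SYT12 was at 0.471, 0.883 and 0.459 CPM in siControl and at 3.48, 3.003 and 2.91 CPM in siSON, with no overlap. The mean went from 0.604 ± 0.241 to 3.13 ± 0.302 CPM (n = 3), 5.18-fold (log2 2.58, SE 0.25). No other synaptotagmin of the 6 tested was called higher by edgeR, at an unadjusted p under 0.05 or by DESeq2 (0 each), and 3 were called lower; with the replicate number as a block 1 was called higher. SYT1, the main calcium sensor of neurotransmitter release, fell from 98.5 ± 3.32 to 28.4 ± 1.57 CPM (log2 -1.60, adjusted p = 3.4e-09), and SYT11 from 103 ± 3.37 to 64.5 ± 2.22 CPM (log2 -0.47). The other 10 family members were too low to be tested.

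SLC35F3 belongs to the SLC35 family, most of whose members carry nucleotide sugars into the Golgi, and has been described as a thiamine transporter. The gene (ENSG00000183780) lies on chromosome 1 at 233904933 to 234324516, plus strand, with 9 merged exons, the longest span of the 9. SLC35F3 was at 0.866, 0.713 and 0.702 CPM in siControl and at 5.36, 4.65 and 4.10 CPM in siSON. These were the tightest siControl values of the set, and siSON replicate 1 was again the highest. From 0.760 ± 0.0917 to 4.70 ± 0.628 CPM (n = 3), the rise was 6.19-fold (log2 2.82, SE 0.18). Of 23 other SLC35 genes tested, 13 rose and 6 fell, a median log2 fold change of 0.46. Its subfamily rose with it where expressed: SLC35F2 from 32.0 ± 2.71 to 67.5 ± 2.85 CPM (log2 1.27), SLC35F5 from 45.1 ± 1.15 to 87.3 ± 1.63 CPM (log2 1.15) and SLC35F6 from 32.4 ± 0.829 to 61.1 ± 6.16 CPM (log2 1.11). SLC35F1 and SLC35F4 were near 0 and not tested. SLC35C2, a Golgi family member, fell from 33.2 ± 1.18 to 1.89 ± 0.197 CPM (log2 -3.94).

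EEF1AKMT4 is a lysine methyltransferase of the translation elongation factor eEF1A. The gene (ENSG00000284753) lies on chromosome 3 at 184249650 to 184259585, plus strand, with 3 merged exons. EEF1AKMT4 was at 0.881, 0.866 and 0.473 CPM in siControl and at 5.29, 3.39 and 3.72 CPM in siSON, with siSON replicate 1 apart from the other two. The mean went from 0.740 ± 0.231 to 4.13 ± 1.02 CPM (n = 3), 5.59-fold (log2 2.69, SE 0.26). Of its 1823 exon bases, 480 are shared on the same strand with the read-through gene EEF1AKMT4-ECE2, listed at 0 in all libraries, and 373 on the other strand with CAMK2N2, which had 1.76 and 1.35 CPM. How reads in shared exons were handled is not given in the sources used here. The 0 therefore does not show that the read-through is absent. The counts of EEF1AKMT4, and its level per kilobase, are uncertain to that extent.

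The other 4 eEF1A lysine methyltransferases tested had 0 calls by edgeR and by DESeq2, with 2 at an unadjusted p under 0.05. EEF1AKMT1 stood at 10.9 ± 1.22 and 11.4 ± 1.11 CPM (adjusted p = 0.0552), EEF1AKMT2 at 11.8 ± 0.169 and 10.3 ± 0.668 CPM (0.963), EEF1AKMT3 at 4.79 ± 0.521 and 4.48 ± 0.185 CPM (0.513) and EEF1AKNMT, also called METTL13, at 36.7 ± 0.653 and 28.97 ± 1.17 CPM (0.063). With library size alone 1 was called lower, and with the replicate number as a block 1 higher and 1 lower. Their common substrate EEF1A1 rose from 6120 ± 264 to 7210 ± 412 CPM (log2 0.43), while EEF1A2, the form of muscle and neurons, was near 0.

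CNTD2, named CCNP in current annotation, carries a cyclin box, the fold with which cyclins bind their kinases. The gene (ENSG00000105219) lies on chromosome 19 at 40222208 to 40226697, minus strand, with 5 merged exons. CNTD2 was at 0.502, 0.696 and 0.545 CPM in siControl and at 3.28, 4.43 and 3.90 CPM in siSON, the only gene of the 9 with siSON replicate 2 highest. The mean went from 0.581 ± 0.102 to 3.87 ± 0.574 CPM (n = 3), 6.67-fold (log2 2.93, SE 0.20). Of 25 other cyclin genes tested, 9 rose and 9 fell. The related CNTD1, known from meiotic crossover formation, fell from 1.36 ± 0.192 to 0.291 ± 0.115 CPM (log2 -2.03), and CCNE2, which drives entry into S phase, from 25.04 ± 2.12 to 0.987 ± 0.389 CPM (log2 -4.49). CCNJL rose from 23.3 ± 2.37 to 88.0 ± 2.71 CPM (log2 2.12).

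**Figure D3:**
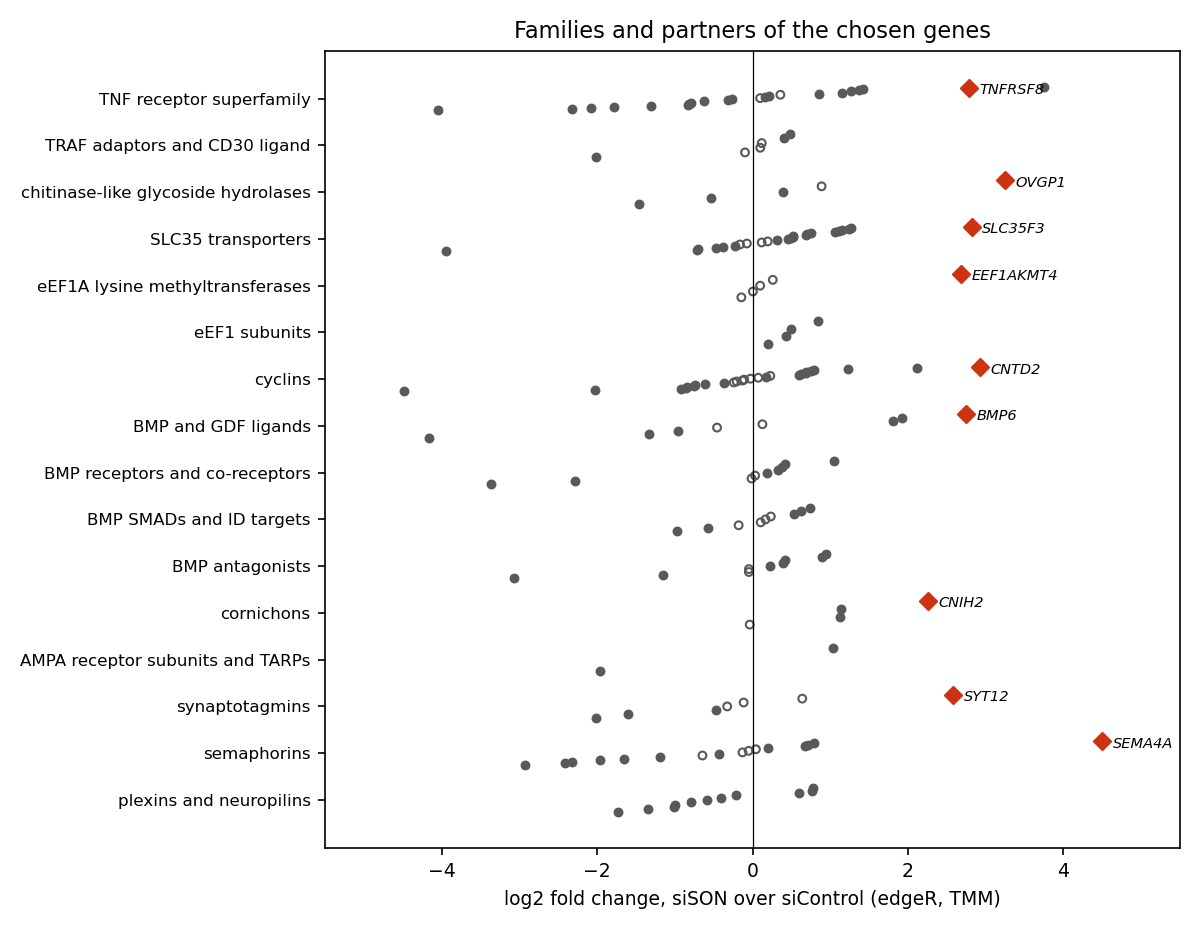
Log2 fold change of each of the 9 genes (red diamonds) and of the tested members of its family and partner lists (grey filled, adjusted p under 0.05; open, not called). Except for TNFRSF4 in the TNF receptor row, a gene under 1 CPM in both groups, no family member lies to the right of the chosen gene. The chosen genes were picked for their rise, so this order follows largely from the rule.

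Compared per length, the 9 genes remained weakly expressed after their rise. Per kilobase of merged exon, siSON CPM was 2.29 for OVGP1, 2.27 for EEF1AKMT4, 1.89 for CNTD2, 1.59 for TNFRSF8, 1.52 for CNIH2, 1.47 for SLC35F3, 1.157 for BMP6, 0.448 for SEMA4A and 0.289 for SYT12. The ranges over libraries of neighbours in this order overlapped, except between BMP6 and SEMA4A. The median of tested protein-coding genes was 4.20 CPM per kilobase in siSON. Among those genes the 9 stood at percentiles 15.2 to 37.8 in siSON, and at 0.569 to 13.4 in siControl.

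Replicates did not vary alike. The highest siSON value came from replicate 1 for 7 of the 9 genes, all but TNFRSF8 and CNTD2, whereas replicate 1 was highest for 32.2% of 848 other protein-coding genes in the same range of siSON level. Replicate 1 was also highest for MTUS1, IL1RN and GFRA1, which lay just outside the bounds, but not for DUSP2. The rule used these siSON values, and the 848 genes were matched on siSON level alone, so replicate 1 is not shown to be particular to the 9. Why replicate 1 was high was not tested. The coefficient of variation in siSON had a median of 14.8% (7.19% for TNFRSF8 to 50.4% for SEMA4A), against a median of 11.4% for those 848 genes. In siControl, where counts were fewer, the median was 31.3% (12.1% to 40.9%). Why the spread was larger in siControl was not tested. At least 3 CPM in every siSON library was reached by 5 of the 9, and 7 were under 1 CPM in every siControl library.

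The genes lay on chromosomes 1, 3, 6, 11 and 19. Chromosome 1 held 4 of the 9, at positions far apart (44.4%, against 10.3% of tested protein-coding genes). The 2 on chromosome 11 (22.2%, against 5.70%), CNIH2 and SYT12, lay nearer each other. Median gene span was 30.4 kb, against 33.6 kb for tested protein-coding genes, the median number of merged exons 9 against 11, and the merged exon length 2780 bases against 5138. Of the 18 nearest protein-coding genes, taking 1 on each side, 12 were tested, 6 were called higher and 5 lower, and their median log2 fold change was 0.28. None of the 12 tested rose as much as the gene beside it. The 9 genes were chosen for their rise and the neighbours were not, so this contrast follows largely from the rule.

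ALG3, a mannosyltransferase gene that starts 0.101 kb from EEF1AKMT4 and runs the other way, went from 29.6 ± 4.14 to 66.7 ± 4.64 CPM (log2 1.37). RAB1B, a Golgi GTPase gene 0.697 kb upstream of CNIH2 on the same strand, went from 284 ± 5.27 to 342 ± 3.94 CPM (log2 0.47), and KLC2, a kinesin light chain gene 10.3 kb upstream, fell from 96.5 ± 6.68 to 11.5 ± 2.35 CPM (log2 -2.87). TXNDC5, 0.094 kb past the end of BMP6 on the opposite strand, increased from 11.8 ± 1.21 to 19.1 ± 2.06 CPM (log2 0.90). Upstream of CNTD2 by 3.62 kb, on the same strand, the kinase gene AKT2 fell from 139 ± 1.81 to 52.7 ± 2.40 CPM (log2 -1.21), and TTC9B, 3.81 kb downstream of CNTD2, fell from 1.68 ± 0.531 to 0.258 ± 0.0452 CPM (log2 -2.51). LMNA, 7.28 kb upstream of SEMA4A, fell by 0.15 on the log2 scale (adjusted p = 0.0282). The genes closest to the 9 thus moved in both directions.

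**Figure D4:**
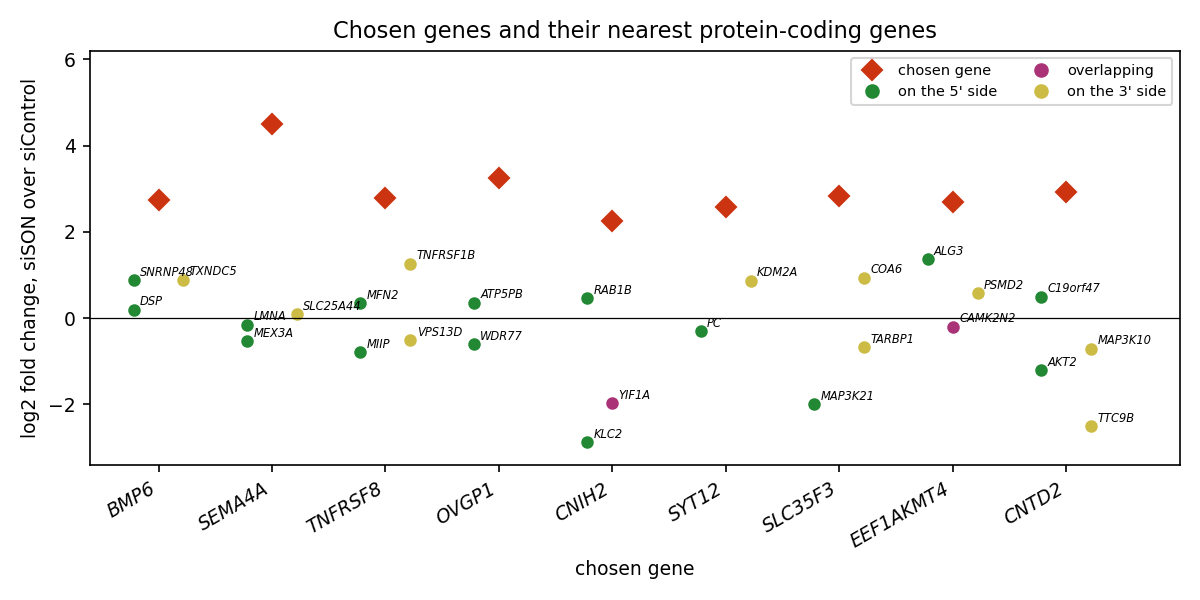
Log2 fold change of the 9 genes (red diamonds) and of their nearest protein-coding neighbours, up to 2 a side where tested, coloured by side (5' green, 3' yellow, overlapping purple). The neighbours run from -2.87 for KLC2 to 1.37 for ALG3, below every one of the 9 genes, which were chosen for their rise.

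Promoter windows were found in RefSeq for 6 of the 9 genes; OVGP1, SLC35F3 and SYT12 had no entry. The windows printed above ranged from 8 CG dinucleotides in SEMA4A to 44 in CNIH2, with EEF1AKMT4 at 19 and CNTD2 at 21, and the median of all 35116 windows was 14, with quartiles of 4 and 28. SEMA4A has 4 windows, so the 6 genes have 9 in all. On either strand, the GC box letters GGGCGG were in 5 of the 9 windows (45.0% of all windows), CACGTG in 2 of 9 (7.26%), and TATAAA (11.5%) and TGACGTCA (1.85%) in 0 of 9. By gene, GGGCGG was in 5 of the 6 and CACGTG in 2 of the 6. The shares of all windows are per window, not per gene, and SEMA4A windows overlap in part. GGGCGG itself holds a CG dinucleotide, so its share moves with CpG content.

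None of the 9 genes is in the 16 marker and response lists, so the lists show what other genes of the same tissues did. The lists hold 486 genes of the table, 293 of them under 1 CPM in siControl. Of the 293, 4 reached 1 CPM in siSON, a share similar to the 127 of all 8217 protein-coding genes under 1 CPM in siControl. They were the embryonic myosin MYH3 (0.550 ± 0.162 to 1.157 ± 0.234 CPM) and the stem cell receptor LGR5 (0.776 ± 0.152 to 1.02 ± 0.0821 CPM). The others were the cancer-testis gene SSX1 (0.915 ± 0.0237 to 1.37 ± 0.196 CPM) and the potassium channel KCNQ3 (0.583 ± 0.248 to 1.32 ± 0.587 CPM). None of the 293 reached 3 CPM, against 11 of the 8217, which is also rare.

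Lists for brain, blood, retina and liver stand for tissues in which some of the 9 genes are best known, and no list covers the oviduct. The neuronal and retinal counts lay near the shares of all genes tested. Of 25 neuronal genes tested, 6 rose and 9 fell (median log2 fold change -0.31), with the kinesin KIF5C going from 12.3 ± 0.0834 to 1.98 ± 0.428 CPM (log2 -2.45) and the vesicle priming factor UNC13A from 2.86 ± 0.222 to 0.199 ± 0.0903 CPM (log2 -3.61). Among the 6 that rose were MAP2 (21.7 ± 2.74 to 34.1 ± 1.88 CPM, log2 0.85) and SNAP25 (5.40 ± 0.818 to 8.51 ± 0.917 CPM, log2 0.85). Of 12 blood and immune genes tested, 8 fell and none was called higher by edgeR, at an unadjusted p under 0.05 or by DESeq2 (0 each), with CORO1A falling from 4.60 ± 0.858 to 0.144 ± 0.0839 CPM (log2 -4.82) and LAPTM5 from 13.9 ± 0.768 to 2.04 ± 0.314 CPM (log2 -2.58). Of 12 retinal genes, 4 rose and 5 fell, and RDH5, a visual cycle dehydrogenase, fell from 4.39 ± 0.899 to 0.319 ± 0.0744 CPM (log2 -3.57). Of 6 liver, kidney, gut and pancreas genes tested, 4 rose and 1 fell, with CYP2E1, a liver cytochrome, rising from 2.41 ± 0.989 to 6.30 ± 0.837 CPM (log2 1.58).

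Counts for the other tissue lists were as follows: glial 4 higher and 5 lower of 10, muscle 3 and 7 of 14, keratinocyte and other epithelium 5 and 6 of 13, fibroblast 2 and 7 of 15, testis 2 and 0 of 3, and endothelial 0 and 7 of 9, where DESeq2 and an unadjusted p under 0.05 also gave 0 higher. Ion channels of excitable cells had 7 higher and 7 lower of 21. The response lists were counted in the same way. Of 24 ATF4 targets tested, 14 rose and 6 fell (median 0.63), with CHAC1, a glutathione-degrading enzyme, rising from 2.43 ± 0.156 to 15.98 ± 1.52 CPM (log2 2.91). Of 27 p53 targets, 4 rose and 19 fell (median -0.32), among them CDKN1A, the inhibitor of cyclin-dependent kinases, from 2242 ± 108 to 858 ± 41.7 CPM (log2 -1.19). Interferon genes were 6 higher and 15 lower of 25, cytokines and chemokines 1 and 12 of 19, and immediate early genes 4 and 3 of 20.

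**Figure D5:**
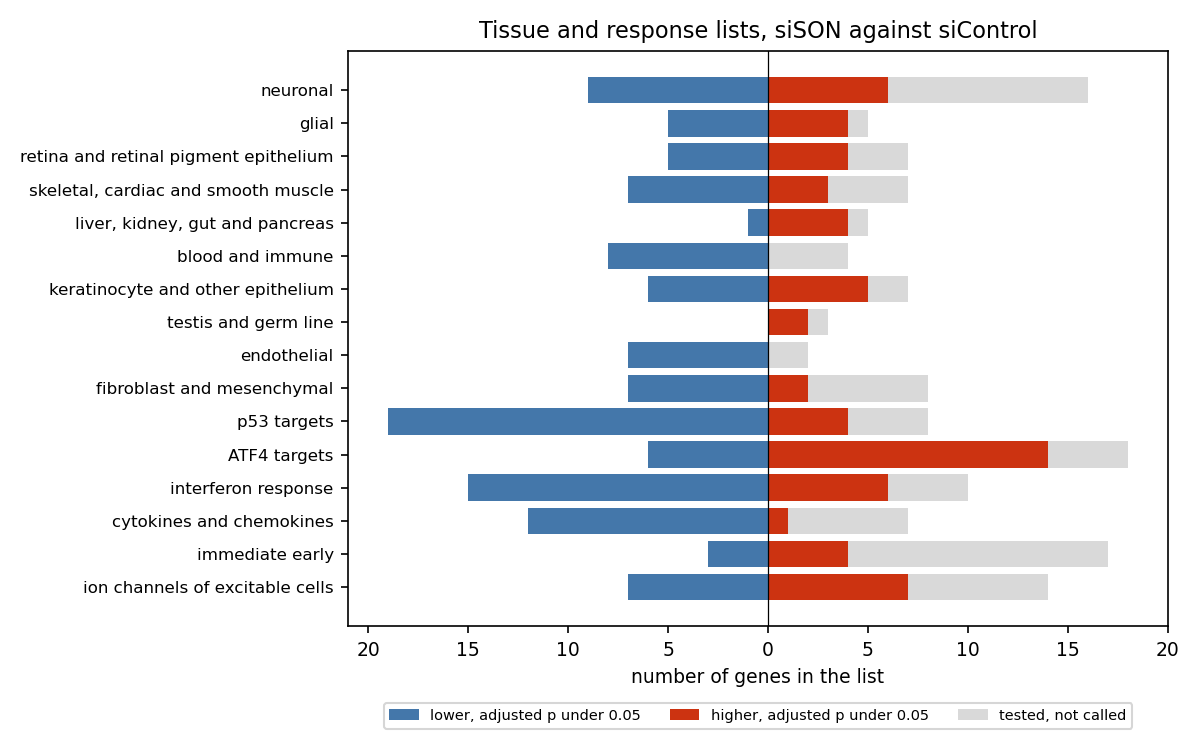
Number of genes of each of the 16 tissue and response lists called higher (red, right), called lower (blue, left) or not called (grey) in siSON. ATF4 targets are the longest red bar, with 14 genes, and p53 targets the longest blue bar, with 19.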

How the data were processed

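The deposited table holds raw whole-number counts for each gene and library, made by the authors without pooling. Per the submitters' processing notes, the tools were cutadapt 1.16, STAR 2.5.2a, featureCounts 1.6.2 and DESeq2 1.28.1, with build hg38. How strand and multi-mapping reads were handled, and which annotation was used, is not given in the sources used here. All 58735 gene identifiers matched GENCODE release 29, which gave positions and exons.

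CPM was computed from raw counts and column sums. Counts were fitted in R 4.3.3 with edgeR 4.0.16: filterByExpr (minimum count 10), TMM factors, glmQLFit with robust estimation, group as the only term, and Benjamini-Hochberg adjustment over 16591 genes. A standard error is the size of the log2 fold change over the root of F. DESeq2 1.42.0, other scalings and filters, a replicate block and leaving out each library were alternatives. The scripts were tested on simulated data. Standard errors and p-values rest on the spread between the 3 libraries of each group.

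The 9 genes, the rule and the 16 lists were chosen with earlier results of these data known, and 16 family and partner lists after the values of the 9 genes were seen. All 9 genes are named, with the 2 nearest genes on each side of each bound, SON, and up to 3 genes with the smallest adjusted p per list; other genes were chosen after their values were seen. Promoter windows came from RefSeq, GRCh38.p14, whose starts can differ from the GENCODE positions. Some genes are not reported here.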

Additional observations from a re-analysis of the deposited data

How the results depend on the processing

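Across all genes, 11888 were called with TMM scaling, against 11770 with DESeq2, 11854 with RLE factors, 11792 with library size alone, 10226 with a mean count of at least 50, 12604 with no filter, and 11153 to 11783 when 1 library was left out. The number of genes that met the rule was the less stable result. It was 9 as stated and 5 to 11 when 1 library was left out, 11 with TMM-scaled CPM (MTUS1 and SPRY1 added), 3 when every library had to pass its bound (SLC35F3, EEF1AKMT4 and CNTD2), 1 with a siControl bound of 0.5 CPM (SEMA4A), and 2 with a siSON bound of 5 CPM (TNFRSF8 and OVGP1). The log2 fold change of the 9 genes ran from 2.06 to 4.84 over 108 alternatives, each within the spread of its libraries. With library size alone, testis genes called higher went from 2 to 1, fibroblast genes called higher from 2 to 1, p53 targets called higher from 4 to 2, and immediate early genes called lower from 3 to 5. The family and partner counts, recomputed under settings added after the data were seen, moved in 11 of 96 alternatives. Same-numbered libraries correlated in their deviations from the group means at 0.194, 0.0461 and 0.118, not all over 0.1, and the labels do not say what a number stands for, so the numbers were not taken as pairs. With the replicate number as a block, 12313 genes were called and immediate early genes called lower went from 3 to 6, and ID1, which did not pass without the block, had an adjusted p of 0.0394. Each of the 3 siControl and 3 siSON libraries correlated best with its own number. Same-numbered libraries also carry consecutive sample numbers in the column headers, whose meaning is not given. Both are hints of pairing, and the main calls were made without it. At 6 to 92 counts per siControl library, the control levels of the 9 genes carry the larger relative error.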
